A study of Arabidopsis thaliana with 18 samples.

Results

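The 53 genes described here encode proteins of the small (40S) subunit of the cytosolic ribosome of Arabidopsis thaliana. They were chosen by a list of gene identifiers, drawn up with earlier results of these data known. All 53 were found among the 33557 genes of the deposited table. The list covers 23 protein families, from SA and S2 to S29. In 20 families it holds 2 to 4 paralogues, and in the other 3 (S15, S15a and S29) it holds 1 gene. Another 46 small-subunit genes stand outside the list and are used here for comparison.

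RNA was sequenced from whole 14-day-old seedlings, and the submitters name 18 samples in 6 groups. The values used here are those of stch4-1 seedlings and of wild-type (WT) Col-0 seedlings, both held at 4 °C for 4 h, with 3 libraries per genotype, called a, b and c. The other 12 samples, taken without cold and after 24 h, were not analysed here. All seedlings grew on MS medium with sucrose, and the labels describe neither the lesion of the single mutant allele nor whether the samples of a group were separate cultures. The p-values therefore measure only the spread between these samples, which may be technical.

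The small subunit reads the mRNA. Its head and body enclose the path of the message, its decoding centre checks the match of codon and tRNA, and it joins the large subunit only when the start codon has been found. A ribosome holds a single copy of each core protein, so the families are needed in equal numbers, yet in plants nearly every one is encoded by a small group of paralogues. STCH4, also known as REIL2, is a plant relative of the yeast protein Rei1, which works on the large subunit late in its maturation. Families are named here by their cytosolic names. The RefSeq product lines name some of them after the bacterial counterpart, for example S5 for S2, S4 for S9 and S11 for S14, and gene symbols are given only where RefSeq has one.

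The mutated gene REIL2 (AT2G24500) had 5.65, 5.44 and 5.80 FPKM in stch4-1 libraries, against 31.2, 34.1 and 36.0 FPKM in WT libraries (limma log2 fold change -2.39). FPKM scales the fragments of a gene by its length and by the size of the library, so that levels of different genes can be set side by side. Over all genes it summed to between 947218 and 987059 per stch4-1 library and between 878394 and 919309 per WT library. The table gives no read counts, so the depth behind a value is unknown. Spearman correlations across genes were 0.9863 to 0.988 between libraries of the same genotype and 0.9826 to 0.9849 between genotypes. Leaf, root and dividing-cell markers were all detected, as the labelled tissue holds all of them.

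Small-subunit genes were among the abundant transcripts. The median gene of the list stood at 295 FPKM in stch4-1 and 266 FPKM in WT, where the median tested gene stood at 12.9 FPKM in either genotype. The 53 genes differed widely among themselves, and their WT means spanned 366-fold. They fell into a main body and a tail: 44 genes lay between 80 and 900 FPKM in both genotypes, and 9 lay under 60 FPKM. The tail held paralogues from SA, S2, S8, S9, S11, S19 and S23.

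**Figure D1:**
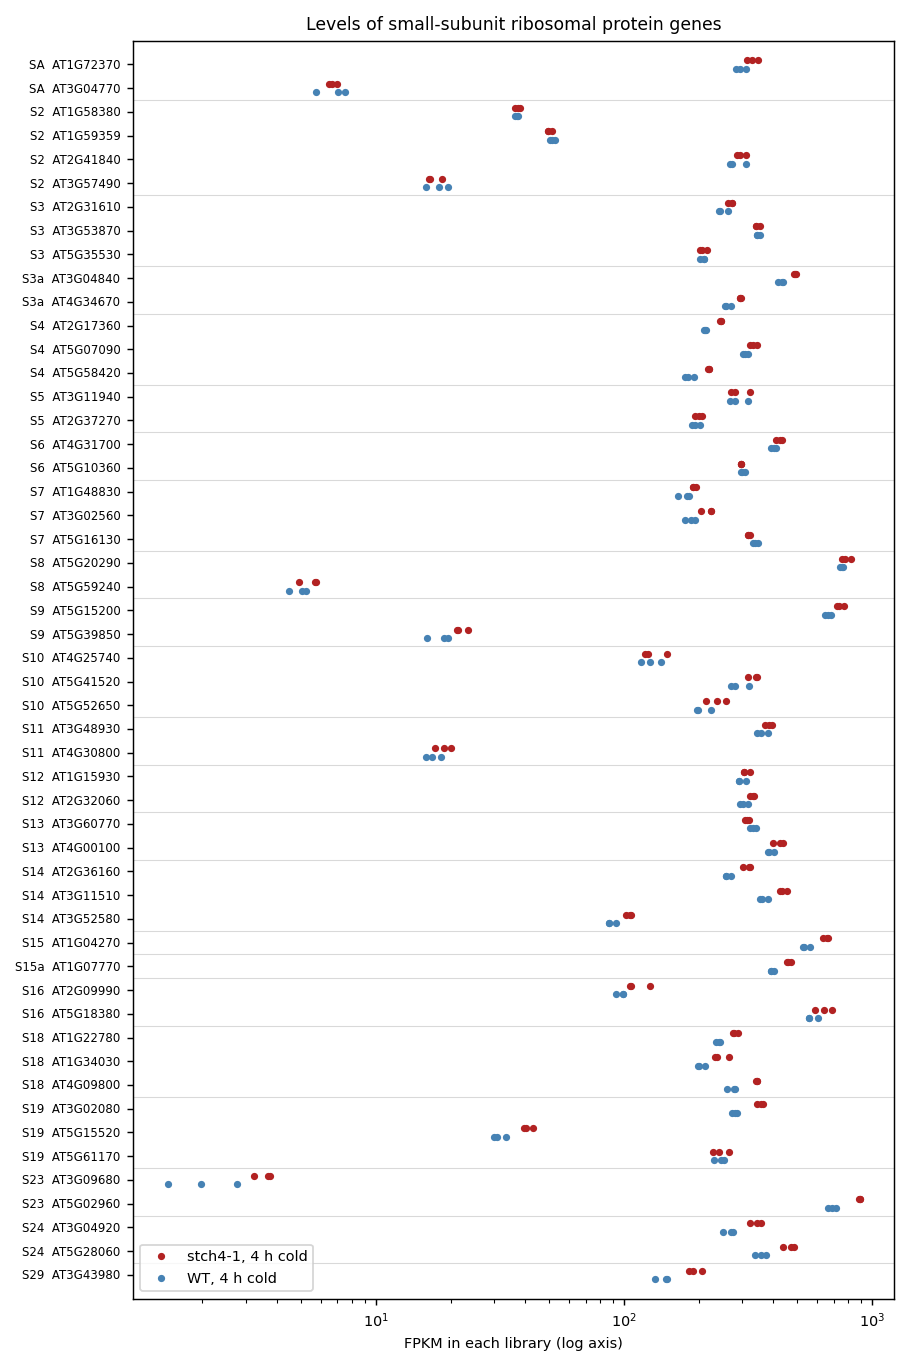
FPKM on a log axis of the small-subunit genes (1 of the 53 is not shown), 1 row per gene and 1 point per library, with stch4-1 in red above WT in blue; grey lines separate families. Most genes lie between 80 and 900 FPKM, and the lowest, AT3G09680 of the S23 family, lies between 1.45 and 3.73 FPKM.

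Summed over paralogues, the families were far closer to each other than the single genes were. With all paralogues of the small subunit counted, 32 families had totals of 769 FPKM in stch4-1 and 690 FPKM in WT at the median, and 28 of the 32 lay within 1.5 times of the median in WT. The S29 family was highest, at 1672 ± 41.1 FPKM in stch4-1 and 1377 ± 40.5 FPKM in WT (SD, n = 3 each). The SA family was lowest, at 336 ± 17.1 FPKM in stch4-1 and 303 ± 14.4 FPKM in WT (SD, n = 3 each). Highest and lowest thus differed 4.98-fold in stch4-1 and 4.54-fold in WT. RACK1, which sits on the head as a signalling scaffold, was left out of these totals.

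**Figure D2:**
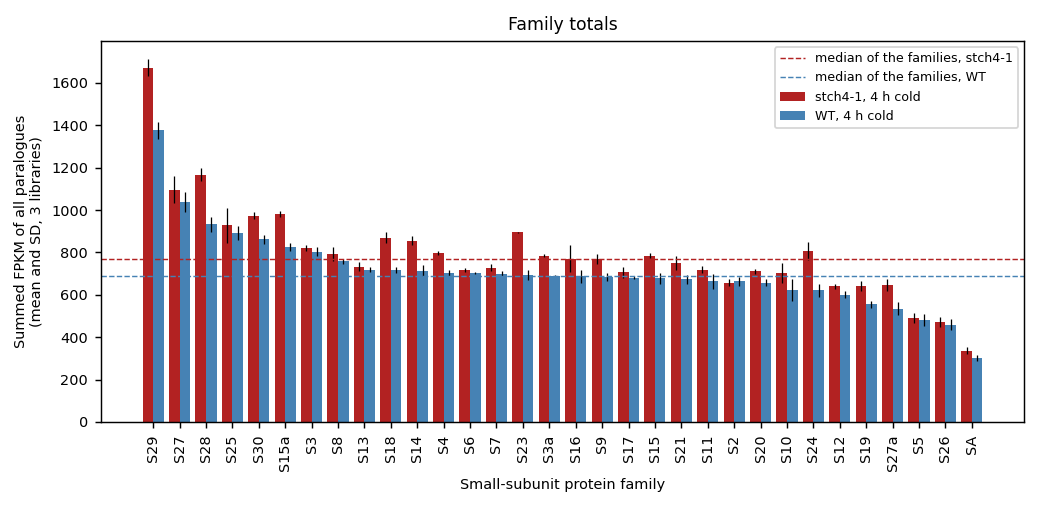
Summed FPKM of all paralogues of each of 32 small-subunit families, as the mean and SD of 3 libraries, with stch4-1 (red) left of WT (blue); dashed lines give the median over families, 769 FPKM in stch4-1 and 690 FPKM in WT. Totals are alike in most families, with S29 at the top (1672 FPKM in stch4-1 and 1377 in WT) and SA at the bottom (336 and 303).

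How that total was divided differed from family to family. In each of the 20 families with several listed paralogues, the gene with the largest mean FPKM is called the leading paralogue, and its share is its part of the summed FPKM of the listed paralogues. The leading share ran from 38.8% to 99.7%, with a median of 56.5%. It passed 90% in 4 families (SA, S8, S9 and S23) and 75% in 1 more (S16), while in 5 families (S3, S4, S7, S10 and S18) no paralogue reached 50%. The proteins of a family are close copies: over 41 pairs of paralogues, identity of the protein had a median of 93.0%, and 27 pairs were at 90% or more.

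The families carried by 1 gene came first in this order. S23 forms part of the decoding centre, and its gene AT5G02960 had 888, 892 and 892 FPKM in stch4-1 libraries, against 714, 666 and 691 FPKM in WT libraries. Its paralogue AT3G09680 had 3.73, 3.69 and 3.22 FPKM in stch4-1 libraries and 1.45, 1.97 and 2.75 FPKM in WT libraries. The leading gene was 282-fold higher over all libraries, although both proteins have 142 residues and differ at 6 aligned positions. S8 lies in the body of the subunit. Its gene AT5G20290 had 779, 758 and 825 FPKM in stch4-1 libraries and 764, 742 and 753 FPKM in WT libraries. AT5G59240, the other S8 gene, had 5.66, 4.92 and 5.74 FPKM in stch4-1 libraries and 5.24, 5.03 and 4.46 FPKM in WT libraries. That is 149-fold less than the leading gene, with the genotypes overlapping in both genes.

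SA sits between head and body on the solvent side, and its genes encode the least alike pair, at 56.0% protein identity. P40 (AT1G72370) had 329, 313 and 347 FPKM in stch4-1 libraries and 293, 311 and 284 FPKM in WT libraries. RPSAb (AT3G04770) had 6.95, 6.49 and 6.65 FPKM in stch4-1 libraries and 5.75, 7.49 and 7.02 FPKM in WT libraries. P40 was 46.5-fold the higher of the pair. S9 lines the channel by which mRNA enters. AT5G15200 had 738, 724 and 772 FPKM in stch4-1 libraries and 683, 648 and 666 FPKM in WT libraries. Its paralogue AT5G39850 had 21.5, 23.5 and 21.2 FPKM in stch4-1 libraries and 19.6, 18.8 and 16.1 FPKM in WT libraries, 35.1-fold less.

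In S16, whose tail reaches the tRNA in the P site, AT5G18380 held 85.2% of the sum, with 639, 588 and 688 FPKM in stch4-1 libraries and 557, 605 and 557 FPKM in WT libraries. AT2G09990 had 107, 106 and 127 FPKM in stch4-1 libraries and 99.4, 99.4 and 93.1 FPKM in WT libraries. Of the 50-base words in their transcripts, 15.5% (AT2G09990) and 14.3% (AT5G18380) also occur in the partner, so reads could have been split between them. S2 also lies at the mRNA entry. AT2G41840 led the 4 listed S2 genes with 73.3%, at 294, 285 and 310 FPKM in stch4-1 libraries and 267, 309 and 272 FPKM in WT libraries. The lowest S2 gene, AT3G57490, had 16.5, 16.3 and 18.5 FPKM in stch4-1 libraries and 15.9, 17.9 and 19.5 FPKM in WT libraries. The S2 share depends on the list: with the 2 unlisted S2 genes AT1G58684 and AT1G58983 counted, AT2G41840 held 43.8%. Every 50-base word of AT1G59359 occurs in other genes, most in AT1G58684, and 27.7% of those of XW6 (AT1G58380) do, so the levels of these S2 copies are uncertain.

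**Figure D3:**
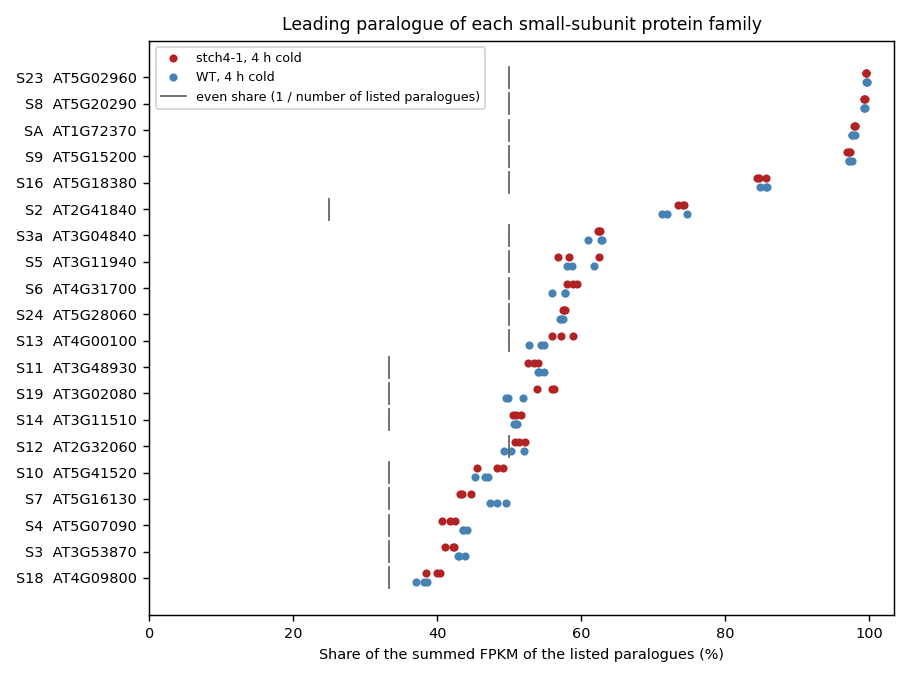
Share of the leading paralogue in the summed FPKM of the listed paralogues of its family, in percent, 1 point per library, with stch4-1 in red above WT in blue; vertical marks give the share if all paralogues were equal. Shares run from 99.7% in S23 to 38.8% in S18, and the genotypes lie close together in each family.

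Most other families were shared out more evenly. The S18 genes, of the head where the subunits touch, encode proteins with identical sequence, and none dominated: RPS18C (AT4G09800) held 38.8%, PFL (AT1G22780) 32.9% and AT1G34030 28.3%. RPS18C had 345, 341 and 345 FPKM in stch4-1 libraries, against 280, 259 and 277 FPKM in WT libraries. AT1G34030 had 266, 237 and 232 FPKM in stch4-1 libraries, against 200, 199 and 213 FPKM in WT libraries. All 3 S18 genes were higher in every stch4-1 library than in any WT library. In S12, a protein of the beak of the head, the pair was nearly even. AT2G32060 had 323, 333 and 332 FPKM in stch4-1 libraries and 316, 301 and 293 FPKM in WT libraries. AT1G15930 had 305, 305 and 321 FPKM in stch4-1 libraries and 291, 310 and 290 FPKM in WT libraries, 49.0% of the S12 sum.

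S3 stands at the mRNA entry, where AT3G53870 led with 42.5%, at 352, 340 and 340 FPKM in stch4-1 libraries and 354, 343 and 344 FPKM in WT libraries. AT5G35530 was lowest, with 207, 216 and 202 FPKM in stch4-1 libraries and 210, 210 and 202 FPKM in WT libraries. The genotypes overlapped in both. They were apart in the other S3 gene, AT2G31610, which had 273, 272 and 263 FPKM in stch4-1 libraries and 262, 244 and 241 FPKM in WT libraries. S10, also of the head, was led by RPS10B (AT5G41520) at 345, 317 and 341 FPKM in stch4-1 libraries and 269, 319 and 279 FPKM in WT libraries. AT4G25740 had 122, 125 and 149 FPKM in stch4-1 libraries and 127, 141 and 117 FPKM in WT libraries, the lowest of the 3 S10 genes. The genotypes overlapped in both. S5, which contacts the tRNA that is leaving, was led by RPS5A (AT3G11940) with 59.4%, at 280, 270 and 323 FPKM in stch4-1 libraries and 281, 315 and 267 FPKM in WT libraries. RPS5B (AT2G37270) had 200, 206 and 193 FPKM in stch4-1 libraries and 202, 194 and 188 FPKM in WT libraries.

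Among proteins of the body, S3a at the mRNA exit was led by AT3G04840 with 62.4%, at 495, 490 and 484 FPKM in stch4-1 libraries and 437, 419 and 433 FPKM in WT libraries. AT4G34670 had 296, 293 and 293 FPKM in stch4-1 libraries and 258, 269 and 256 FPKM in WT libraries. Both S3a genes separated the genotypes. S6 is the protein that S6 kinase phosphorylates. RPS6 (AT4G31700) had 432, 409 and 424 FPKM in stch4-1 libraries and 409, 390 and 404 FPKM in WT libraries, 58.0% of the S6 sum. EMB3010 (AT5G10360) had 295, 296 and 296 FPKM in stch4-1 libraries and 298, 308 and 296 FPKM in WT libraries, every one of them slightly higher. S11 binds 18S rRNA in the body. EMB1080 (AT3G48930) led it with 385, 369 and 395 FPKM in stch4-1 libraries and 382, 344 and 358 FPKM in WT libraries. AT4G30800 had 18.9, 17.3 and 20.1 FPKM in stch4-1 libraries and 18.3, 15.9 and 16.9 FPKM in WT libraries, 20.8-fold less.

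In S14, a protein of the platform, AT3G11510 held 51.0% with 432, 424 and 455 FPKM in stch4-1 libraries, against 359, 379 and 352 FPKM in WT libraries. AT3G52580 held 12.4% with 102, 107 and 106 FPKM in stch4-1 libraries, against 86.9, 92.5 and 87.0 FPKM in WT libraries. The genotypes were apart in both, while the shares were not. S4 was led by AT5G07090 at 321, 343 and 332 FPKM in stch4-1 libraries and 307, 315 and 302 FPKM in WT libraries. AT5G58420, the lowest S4 gene, had 221, 219 and 220 FPKM in stch4-1 libraries and 176, 192 and 181 FPKM in WT libraries. The 3 S4 proteins differ from each other at 1 to 4 positions.

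The promoters of 3 families are shown because they set a strong paralogue beside a weak one (S9 and S23) or beside one of like strength that moved with it (S14). They were picked after the values were seen. Each line gives the 150 bases before the annotated start, 5′ to 3′ on the gene's own strand, from RefSeq assembly TAIR10.1. Capitals mark the telo box AAACCCTAA and the site II element TGGGCC, on either strand, 2 short elements known from plant ribosomal protein promoters.
S9, leading, AT5G15200 (chr5:4936430-4936579, minus strand): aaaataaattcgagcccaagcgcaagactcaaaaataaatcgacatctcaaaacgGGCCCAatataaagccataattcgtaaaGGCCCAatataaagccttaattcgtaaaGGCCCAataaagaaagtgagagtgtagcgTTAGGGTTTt
S9, weak, AT5G39850 (chr5:15949760-15949909, plus strand): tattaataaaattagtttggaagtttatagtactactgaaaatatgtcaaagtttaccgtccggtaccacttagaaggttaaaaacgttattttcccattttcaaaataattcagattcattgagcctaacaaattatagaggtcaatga
S14, leading, AT3G11510 (chr3:3624962-3625111, minus strand): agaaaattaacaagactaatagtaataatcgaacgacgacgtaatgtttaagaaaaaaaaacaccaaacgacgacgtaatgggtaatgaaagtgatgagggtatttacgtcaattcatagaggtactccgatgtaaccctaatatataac
S14, middle, AT2G36160 (chr2:15169668-15169817, plus strand): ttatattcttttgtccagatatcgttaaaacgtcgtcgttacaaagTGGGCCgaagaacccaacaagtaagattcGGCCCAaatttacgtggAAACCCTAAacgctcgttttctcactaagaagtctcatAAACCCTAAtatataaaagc
S23, leading, AT5G02960 (chr5:694516-694665, minus strand): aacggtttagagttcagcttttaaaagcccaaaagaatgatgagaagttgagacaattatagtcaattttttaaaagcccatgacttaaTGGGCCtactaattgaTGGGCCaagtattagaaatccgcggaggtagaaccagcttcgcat
S23, weak, AT3G09680 (chr3:2970372-2970521, minus strand): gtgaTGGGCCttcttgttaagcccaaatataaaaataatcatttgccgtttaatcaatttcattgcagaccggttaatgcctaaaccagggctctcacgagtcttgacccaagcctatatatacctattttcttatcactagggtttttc
The S9 pair differed in these letters: the leading gene held 3 site II elements and a telo box, and the weak gene held none in this stretch. Just after the start, outside the stretch, the weak S9 gene held a site II element. The S14 pair ran the other way, since the leading gene AT3G11510 held neither and AT2G36160, with 36.7% of the S14 sum, held 2 of each. In S23 the leading and the weak gene both held site II in the stretch, and the leading gene a telo box just after the start. Only exact matches were counted, so the near matches of the telo box in the stretches of AT3G11510 and AT3G09680 were not.

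Over 300 bases around the start, from 250 before to 50 after it, 66.0% of the 53 promoters held a site II element, 34.0% a telo box and 24.5% both. Among the 46 other small-subunit genes these shares were 45.7%, 28.3% and 19.6%. Among all 26686 nuclear protein-coding genes of the table they were 15.7%, 3.56% and 1.01%. The 2 motifs can share a base. Of the 20 leading paralogues 16 held either element, and so did 12 of the 20 paralogues with the smallest share in their family. The median FPKM was 314 in stch4-1 and 289 in WT for the 13 genes with both elements, and 236 in stch4-1 and 204 in WT for the 13 genes with neither. A match of letters is a description of the sequence and not of binding.

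The comparison of genotypes asks how the transcripts of the small subunit differ in cold-treated seedlings when REIL2 is mutated. Of the 53 genes, 26 rose in stch4-1 and 0 fell (limma on log2(FPKM + 1), Benjamini-Hochberg adjusted p under 0.05 over 19289 genes). That is 49.1% of the list, where 18.5% of all tested genes were called higher and 14.0% lower. The differences were small: log2 fold changes ran from -0.09 to 0.59, none of the 53 reached the value of 1 that stands for a doubling, and the median was 0.15, against 0.01 over all tested genes. The sign was positive in 46 genes and negative in 7. In 30 of the 53 every stch4-1 library lay above every WT library, and in 3 every one lay below. Among all tested genes these shares were 25.1% and 22.7%.

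The summed FPKM of the list was 15627, 15265 and 15759 in stch4-1 libraries, against 13978, 13939 and 13693 in WT libraries. Means were 15550 ± 256 in stch4-1 and 13870 ± 155 in WT (SD, n = 3 each), a ratio of 1.12, with groups that did not overlap. Since the list was drawn up with earlier results known, no test is given for its sum. FPKM over all genes also summed higher in every stch4-1 library than in any WT library. As a part of it, the list took 1.63%, 1.61% and 1.60% in stch4-1 libraries and 1.59%, 1.52% and 1.53% in WT libraries. In whole seedlings, more cells rich in ribosomes and more transcript per cell cannot be told apart.

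Fewer of these genes were called higher under each of 2 other scalings of the whole table. After quantile normalization, which gives every library the same distribution of values, 11 of the 53 genes were called higher and 5 lower, with a median log2 fold change of 0.01 (13.6% and 16.1% of all tested genes). After removal of a trend of fold change with exon length, 10 were called higher and 4 lower, with a median of 0.04 (14.1% and 12.1% of all tested genes). The shares of the list were then 20.8% higher and 9.43% lower after quantile normalization, and 18.9% and 7.55% without the length trend. Called lower under both scalings were AT3G53870 (S3), EMB3010 (S6), AT5G16130 (S7) and AT3G60770 (S13), and after quantile normalization also RPS6 (S6). The 8 genes that were called higher under these and all other settings tried were AT5G58420 (S4), RPS18C, AT3G02080 and AT5G15520 (S19), AT5G02960 (S23), AT3G04920 and AT5G28060 (S24) and AT3G43980 (S29). In 26 genes the fold change was positive under every setting.

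**Figure D4:**
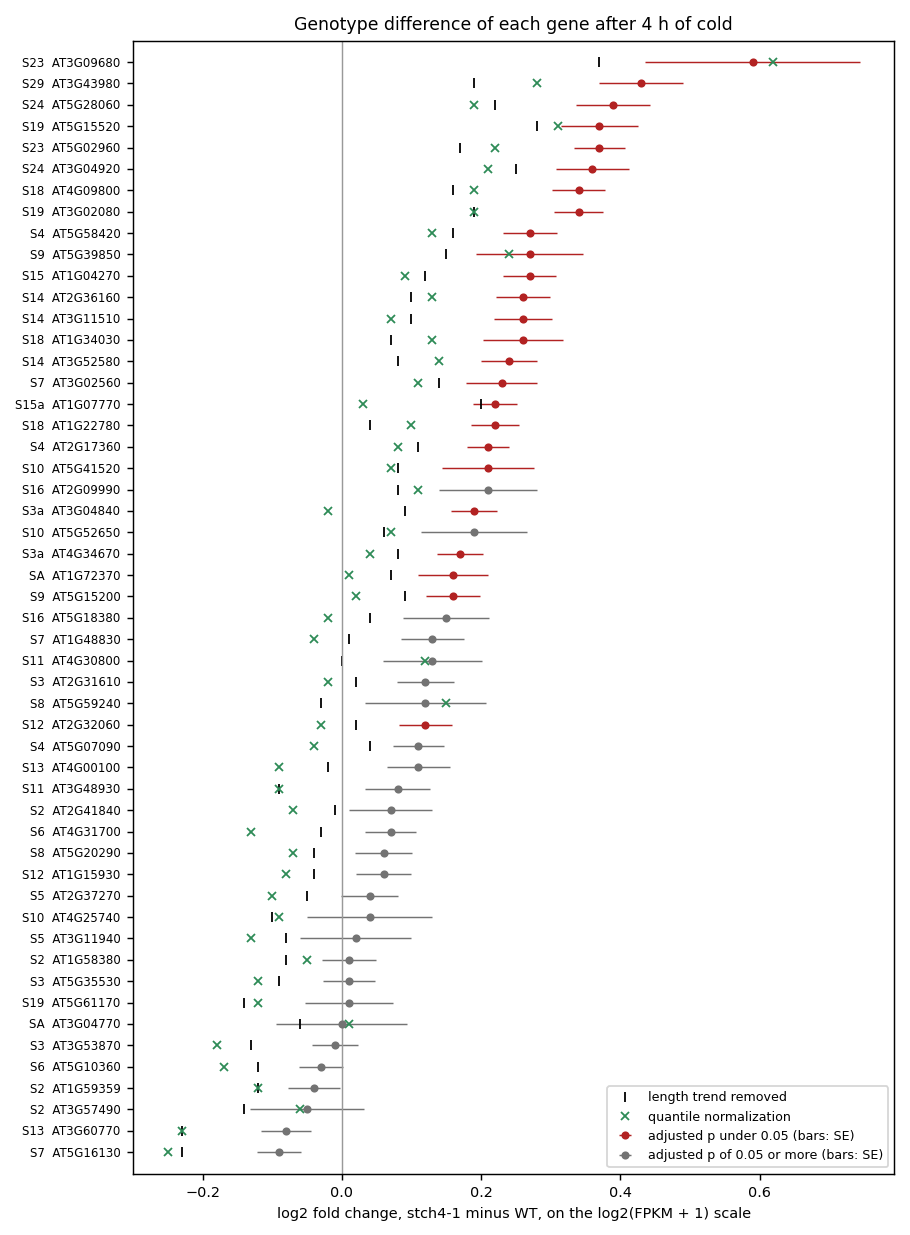
Log2 fold change of stch4-1 over WT for the small-subunit genes (1 of the 53 is not shown) on the log2(FPKM + 1) scale, sorted, with bars for the standard error; red marks an adjusted p under 0.05, black ticks the value after removal of the length trend and green crosses the value after quantile normalization. Fold changes run from -0.09 to 0.59, and both alternatives move most genes towards 0 or below it.

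By place in the subunit, 9 of 20 genes of the head and 17 of 33 genes of the body and platform rose, with medians of 0.17 and 0.14. Over all tested genes 18.5% rose. Calls by place were counted on the log2(FPKM + 1) scale only. All listed genes rose in 9 families (S3a, S9, S14, S15, S15a, S18, S23, S24 and S29), of which S15, S15a and S29 have 1 listed gene each. Tested unlisted genes of S15 (log2 fold change -0.04, adjusted p = 0.61) and S15a (-0.03 and 0.19, adjusted p = 0.809 and 0.174) were not called. Other unlisted genes of S15a, and those of S29, were called higher. No listed gene was called in 7 families (S2, S3, S5, S6, S8, S13 and S16). The other 7 families were mixed, and in them P40 (SA), RPS10B (S10) and AT2G32060 (S12), for example, rose beside paralogues that were not called. Over all families, 19 of the 26 calls held with any 1 library left out. Those that did not include these 3, AT3G09680 and both S9 genes. For P40, RPS10B and AT2G32060 the log2 fold changes were 0.16, 0.21 and 0.12 (adjusted p = 0.0471, 0.0413 and 0.0482), and without stch4-1 a the adjusted p was 0.112, 0.127 and 0.0816.

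S24, a protein of the body, rose in both of its genes. AT5G28060 had 485, 472 and 437 FPKM in stch4-1 libraries, against 372, 336 and 358 FPKM in WT libraries (log2 fold change 0.39 ± 0.053 SE, adjusted p = 0.00141). AT3G04920 had 358, 344 and 322 FPKM in stch4-1 libraries, against 276, 251 and 270 FPKM in WT libraries (0.36 ± 0.052, adjusted p = 0.00177). The lowest stch4-1 library exceeded the highest WT library in both, and both calls held under either other scaling at smaller values, 0.22 and 0.25 without the length trend and 0.19 and 0.21 after quantile normalization (log2 fold change, AT5G28060 first). For S23, whose values are given above, AT5G02960 rose by 0.37 ± 0.037 (adjusted p = 0.000375). Its weak paralogue AT3G09680 had the largest fold change of all, 0.59 ± 0.154 (adjusted p = 0.0207), at under 4 FPKM. Of its 50-base words 3.27% occur in AT5G02960, so at this level some of its reads may belong to the stronger gene. That call was lost on removal of the length trend (0.37, adjusted p = 0.108) and without stch4-1 a (adjusted p = 0.0674), stch4-1 b (adjusted p = 0.061) or WT b (adjusted p = 0.0507).

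S29, a small zinc-binding protein of the head, has 1 listed gene. AT3G43980 had 190, 183 and 207 FPKM in stch4-1 libraries, against 147, 133 and 149 FPKM in WT libraries. Its log2 fold change was 0.43 ± 0.060 (adjusted p = 0.00149), and 0.19 (adjusted p = 0.0499) without the length trend, at the edge of the threshold. At 576 bases it is also the shortest of the 53 genes. S15 is a head protein near the decoding site, and RPS15 (AT1G04270) had 657, 665 and 634 FPKM in stch4-1 libraries, against 560, 528 and 533 FPKM in WT libraries (0.27 ± 0.038, adjusted p = 0.00165). The RPS15 call was lost after quantile normalization (0.09, adjusted p = 0.172) and without the length trend (0.12, adjusted p = 0.0741). S15a lies in the body, and RPS15A (AT1G07770) had 469, 455 and 456 FPKM in stch4-1 libraries, against 401, 391 and 392 FPKM in WT libraries (0.22 ± 0.032, adjusted p = 0.00178). RPS15A, the longest of the 53 genes, was called without the length trend (0.20, adjusted p = 0.00445) and was not after quantile normalization (0.03, adjusted p = 0.62).

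RPS18C rose by 0.34 ± 0.038 (adjusted p = 0.000565), and the other S18 genes by 0.22 (PFL) and 0.26 (AT1G34030). RPS18C was called under both other scalings, whereas PFL and AT1G34030 were not, with 0.04 (adjusted p = 0.466) and 0.07 (adjusted p = 0.385) without the length trend, and adjusted p = 0.107 and 0.133 after quantile normalization. The 3 S14 genes rose by 0.24 to 0.26, both S3a genes by 0.17 and 0.19, and the S9 genes by 0.16 (AT5G15200) and 0.27 (AT5G39850). Without the length trend, none of these S14, S3a and S9 genes was called. After quantile normalization AT2G36160 and AT3G52580 of S14 were called and the others were not, and AT3G04840 of S3a turned to -0.02 (adjusted p = 0.696). The S9 calls were also lost without stch4-1 a (adjusted p = 0.0529 for AT5G15200 and 0.064 for AT5G39850) and without WT c (adjusted p = 0.0569 and 0.0699), and that of AT5G39850 without stch4-1 b (adjusted p = 0.0929).

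The largest contrasts within a family were in S19 and S7. S19 is a head protein required for the maturation of the small subunit in yeast and human cells. AT3G02080 had 362, 344 and 357 FPKM in stch4-1 libraries, against 273, 286 and 280 FPKM in WT libraries (0.34 ± 0.035, adjusted p = 0.000422). AT5G15520 had 40.3, 43.1 and 39.5 FPKM in stch4-1 libraries, against 30.8, 33.6 and 30 FPKM in WT libraries (0.37 ± 0.055, adjusted p = 0.00207). AT5G61170 overlapped between genotypes, with 242, 228 and 266 FPKM in stch4-1 libraries and 247, 254 and 230 FPKM in WT libraries (0.01, adjusted p = 0.922). The share of AT3G02080 was accordingly 56.2%, 56.0% and 53.9% in stch4-1 libraries, against 49.6%, 49.9% and 51.9% in WT libraries. That of AT5G61170 was lower in stch4-1 by 5.62 percentage points, the largest change of any share. Of the 50-base words of AT5G15520, 11.7% occur in its neighbour AT5G15530.

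S7, a body protein, had a leading gene with a negative sign. AT5G16130 had 323, 315 and 317 FPKM in stch4-1 libraries, against 347, 332 and 338 FPKM in WT libraries (-0.09 ± 0.032, adjusted p = 0.066). Its paralogue AT3G02560 had 225, 224 and 205 FPKM in stch4-1 libraries, against 187, 176 and 194 FPKM in WT libraries (0.23 ± 0.051, adjusted p = 0.0113). That call was lost after quantile normalization (0.11, adjusted p = 0.211) and without the length trend (0.14, adjusted p = 0.1). AT1G48830, with the smallest S7 share, had 195, 190 and 189 FPKM in stch4-1 libraries, against 165, 180 and 182 FPKM in WT libraries (0.13, adjusted p = 0.0642). The share of AT5G16130 was 43.5%, 43.2% and 44.7% in stch4-1 libraries, against 49.6%, 48.3% and 47.4% in WT libraries. AT5G16130 was called lower after quantile normalization (-0.25, adjusted p = 0.00288) and without the length trend (-0.23, adjusted p = 0.0029).

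S13 gave a similar pair, with proteins that differ at 1 position. AT3G60770 had 306, 312 and 319 FPKM in stch4-1 libraries, against 340, 330 and 322 FPKM in WT libraries (-0.08 ± 0.036, adjusted p = 0.119). RPS13A (AT4G00100) had 438, 397 and 427 FPKM in stch4-1 libraries, against 379, 401 and 385 FPKM in WT libraries (0.11, adjusted p = 0.0883). AT3G60770 was below WT in every library, and it was called lower after quantile normalization (-0.23, adjusted p = 0.00349) and without the length trend (-0.23, adjusted p = 0.00318). RPS13A held 58.9%, 56.0% and 57.2% of the S13 sum in stch4-1 libraries, against 52.7%, 54.9% and 54.4% in WT libraries.

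Over the 20 families, the leading share lay apart between genotypes in 8. It was higher in every stch4-1 library in S6, S13, S19 and S24 and lower in S3, S4, S7 and S11. No listed share lay apart in 11 families, and the leading gene was the same in both genotypes by mean FPKM in all 20. The exact permutation p of each share that lay apart was 0.1, the smallest that 3 against 3 allows, so no single shift can pass a threshold of 0.05. The shares of a family sum to 100%, so those of its members are not independent. In small-subunit families wholly outside the list, the leading share lay apart in S21 and S26, higher in stch4-1. It overlapped in S17, S20, S25, S27, S27a, S28, S30 and RACK1. No such comparison was made outside the small subunit, so whether 8 of 20 is unusual is not known. By level, 25.1% of all tested genes lay above WT in every stch4-1 library and 22.7% lay below.

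The next lowest log2 fold changes were those of 2 S2 genes. AT3G57490 stood at -0.05 (adjusted p = 0.681) and turned to 0.02 without WT c. AT1G59359 had 49.2, 49.3 and 51.5 FPKM in stch4-1 libraries and 51.2, 50.2 and 52.6 FPKM in WT libraries (-0.04, adjusted p = 0.49). Its 50-base words all occur in other genes, so its level is uncertain. Nearest to the threshold were AT2G32060 of S12 on the called side (0.12, adjusted p = 0.0482) and AT2G09990 of S16 on the other (0.21, adjusted p = 0.0503). AT2G32060 kept its call without WT a, and lost it without any other library. Quantile normalization turned it to -0.03 (adjusted p = 0.618). AT2G09990 was called without stch4-1 b (0.26, adjusted p = 0.0476).

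Gene length moved with the fold change. When the 19153 tested genes with a known exon length were put into 10 bins, the shortest genes had a median of 0.183 and the longest one of -0.155 (log2 fold change). All 53 small-subunit genes are shorter than the median tested gene, at 576 to 1653 bases with a median of 1093, against 1758. In the bin of the shortest genes, the 13 members had a median of 0.265. In the next 2 bins, 19 members had a median of 0.131 where all genes had 0.127, and 18 members had 0.094 where all genes had 0.085. Among the 53 themselves, 13 of the 18 shortest were called higher, 5 of the middle 17 and 8 of the 18 longest. Over all tested genes, of every length, 18.5% were called higher. Across the 53 genes, which share libraries and are not independent, Pearson's r of log2 fold change with log2 length was -0.5 and Spearman's rho -0.41.

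**Figure D5:**
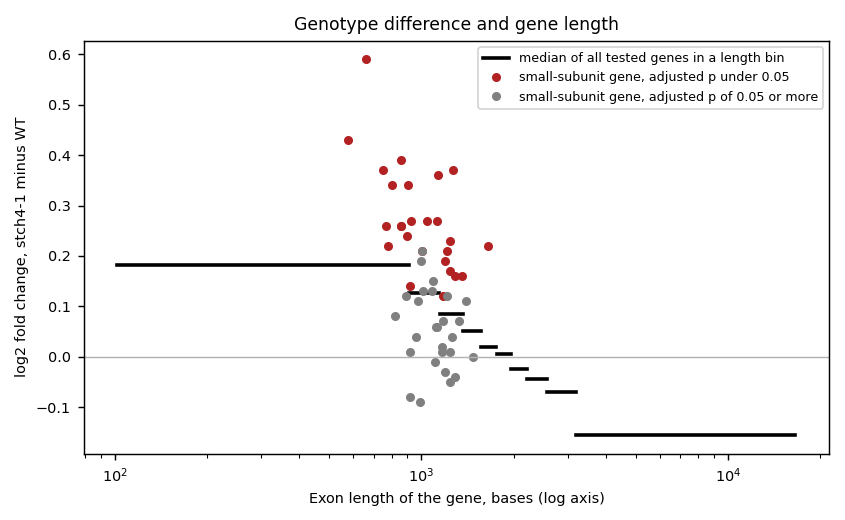
Log2 fold change of stch4-1 over WT against exon length in bases on a log axis; black segments give the median of all tested genes in each of 10 length bins, and points are the 53 small-subunit genes, red where the adjusted p is under 0.05. Bin medians fall from 0.183 to -0.155, and the small-subunit genes lie in the 5 shortest bins on both sides of the medians.

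The genes were also grouped by the letters in their promoters. Of the 13 genes with both elements 7 were called higher, and of the 22 with site II only 12. Of the 5 with the telo box only 2 were called higher, and of the 13 with neither 5. Among all tested genes the share called higher was 18.5%. The medians of these groups were 0.16, 0.13, 0.13 and 0.17 on the log2 scale, and the groups were not tested against each other. Both S14 genes printed above rose by 0.26.

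Of the 46 other small-subunit genes, 39 passed the filter on low values, of which 14 rose and 2 fell, or 35.9% and 5.13% of those tested, where all tested genes had 18.5% and 14.0%. After quantile normalization, and likewise without the length trend, 4 were called higher and 7 lower. The largest increases were in RPS15AD (AT3G46040, S15a), at 197 ± 5.50 FPKM in stch4-1 and 153 ± 5.79 FPKM in WT (SD, n = 3 each; log2 fold change 0.36, adjusted p = 0.000543), and in AT5G03850 (S28), at 671 ± 33.6 FPKM in stch4-1 and 523 ± 19.3 FPKM in WT (0.36, adjusted p = 0.00117). The genes that fell were AT3G18130 (RACK1; -0.17, adjusted p = 0.0273) and AT1G58983 (S2; -0.11, adjusted p = 0.0315); the S2 gene shares its sequence with other S2 copies. The call of AT1G58983 held only when WT b was left out (adjusted p = 0.0632 to 0.086 for each other omission). That of AT3G18130 held on leaving out stch4-1 c or WT a, and was lost on leaving out any of the other 4 (adjusted p = 0.0659 to 0.0858). By family total, 18 of the 32 families lay above WT in every stch4-1 library, 14 overlapped and 0 lay below. Among single tested genes, 25.1% lay above WT in every stch4-1 library and 22.7% lay below. Family totals were not computed under the other scalings. The highest ratios of means were 1.3 in S24 and 1.29 in S23, and S2 stood at 0.993.

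Genes that act on or around the small subunit were described from 2 further lists of 6, beside the shares of 18.5% higher and 14.0% lower over all tested genes. Of 6 factors for 18S rRNA and small-subunit maturation, 0 rose and 2 fell. PRMT3, an arginine methyltransferase that modifies S2 in yeast, had 8.10, 7.92 and 8.07 FPKM in stch4-1 libraries, against 11.8, 10.6 and 11 FPKM in WT libraries (log2 fold change -0.43, adjusted p = 0.00158). RRP7, a pre-rRNA processing factor, had 11.9, 12.6 and 13.1 FPKM in stch4-1 libraries, against 15.7, 15.2 and 14.2 FPKM in WT libraries (-0.24, adjusted p = 0.0168). Both were called without the length trend, too. RRP7 lost its call without stch4-1 a (adjusted p = 0.0599) or WT a (adjusted p = 0.0546). NOB1, the nuclease that makes the end of 18S rRNA, stood at -0.09 (adjusted p = 0.223).

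Of 6 genes of the TOR and S6 kinase pathway, which signals to S6 and to the translation of ribosomal protein mRNAs, 2 rose and 4 fell. S6K2, an S6 kinase, had 30.6, 31.1 and 30.9 FPKM in stch4-1 libraries, against 26.1, 24.9 and 26.1 FPKM in WT libraries (0.26, adjusted p = 0.00258). MRF1, a translation factor downstream of TOR, had 8.39, 8.59 and 8.05 FPKM in stch4-1 libraries, against 7.43, 6.53 and 6.93 FPKM in WT libraries (0.23, adjusted p = 0.0324). MRF1 was not called without stch4-1 a, stch4-1 b, WT b or WT c (adjusted p = 0.0834 to 0.096). The kinase TOR fell (-0.39, adjusted p = 0.00585), as did its partner RAPTOR1B (-0.30, adjusted p = 0.00594), S6K1 (-0.14, adjusted p = 0.0137) and LARP1A, which binds ribosomal protein mRNAs (-0.37, adjusted p = 0.00323). S6K1 was just short of a call without stch4-1 a (adjusted p = 0.0503). These are long genes. Without the length trend LARP1A was called lower (-0.27, adjusted p = 0.016), and TOR (-0.09, adjusted p = 0.426), RAPTOR1B (-0.10, adjusted p = 0.254) and S6K1 (-0.09, adjusted p = 0.0833) were not. After quantile normalization all 4 were called lower. TOR stood at -0.37 (adjusted p = 0.00848), RAPTOR1B at -0.29 (adjusted p = 0.00711), S6K1 at -0.24 (adjusted p = 0.0016) and LARP1A at -0.38 (adjusted p = 0.0032).

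The summed level of root markers was lower in every stch4-1 library. Of 14 root markers, 12 passed the filter, 0 rose and 7 fell, and their summed FPKM was 193 to 198 in stch4-1 libraries and 237 to 250 in WT libraries. That is 58.3% of those tested, where 14.0% of all tested genes fell. With 1 library left out 5 or 6 fell, and 1 root marker rose without stch4-1 b or WT b. RHD6 was higher in every stch4-1 library and was not called (log2 fold change 0.23, limma adjusted p = 0.0929). Sums of 6 leaf markers were 35135 to 44851 in stch4-1 libraries and 33005 to 40708 in WT libraries, which overlap. Of these markers 2 rose, or 33.3%, where 18.5% of all tested genes rose. These 2 calls were lost after quantile normalization, without the length trend, without the low-value filter, and without stch4-1 a or WT c, and 1 of them was lost without the intensity trend, stch4-1 c or WT a. Of 11 markers of dividing cells 2 fell, with sums of 161 to 164 in stch4-1 libraries and 169 to 173 in WT libraries. That is 18.2% of them, where 14.0% of all tested genes fell, and 0 fell without stch4-1 a or WT c and 1 without WT a. No marker was at 0 in all libraries. The part of these differences in the higher small-subunit transcripts was not tested.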

How the data were processed

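RNA-seq libraries were made from Trizol-extracted, DNase-treated seedling RNA, per the labels' protocols. The authors deposited FPKM per gene. TopHat2, Cufflinks and the TAIR10 build are named in the submitters' processing notes. Nothing used here states their versions, the strand setting or how reads with several matches were treated. Columns are numbered otherwise than the sample titles, so libraries were called a, b and c in table order.

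From these values, genes were kept where at least 3 of 6 libraries reached 1 FPKM, 19289 in all, including all 53 listed, 1 of which is counted but not reported singly here. limma 3.58.1 in R 4.3.3 was run on log2(FPKM + 1), with 2 group means, eBayes moderation along the intensity trend and 2-sided tests. P-values were adjusted over the whole table by Benjamini-Hochberg, and an adjusted p under 0.05 was called. Fold changes on this scale understate the change of low genes. The fit was repeated without a filter, with a minimum mean of 5 FPKM, with a pseudocount of 0.1, without the intensity trend, with quantile normalization, with a loess (span 0.3) against exon length removed from each library, and without each library.

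Exon lengths, transcripts, promoters and coding sequences came from RefSeq (assembly TAIR10.1), which holds 32810 of the identifiers. Python 3.11.15 with pandas 2.3.3 and SciPy 1.17.1 was used for shares, 50-base words and motifs. The members, lists and tests were chosen with earlier results of these data known. Values in every library are given for the leading and the smallest paralogue of each family, the 8 called genes with the largest and the 4 genes with the lowest fold change, those on either side of the threshold, and the 3 genes listed alone. For other small-subunit and pathway genes the called ones with the largest change are named, at most 4 each way.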

Additional observations from a re-analysis of the deposited data

How the results depend on the processing

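Counts depended most on the scaling, and also on other settings. Against 26 of the 53 genes as reported, 21 were called higher without the low-value filter and 22 without the intensity trend. With a minimum mean of 5 FPKM, 27 of 52 tested were called higher. Over all tested genes these shares were 18.5% as reported, and 13.2%, 16.4% and 23.5%. None of the 53 was called lower in these fits. Under quantile normalization 11 of the 53 genes were called higher and 5 lower, the median log2 fold change was 0.01, and summed FPKM was 14736 in stch4-1 and 14631 in WT. Without the length trend 10 were called higher and 4 lower, with a median of 0.04. The other small-subunit genes had 4 higher and 7 lower under either. Without the intensity trend 0 of them were called lower, and without the low-value filter 1 pathway gene was called higher. Leaving out 1 library gave 19 to 26 of the 53 genes higher and 0 lower, where 13.6% to 16.9% of all tested genes were higher. It gave 10 to 15 other small-subunit genes higher and 0 to 2 lower, and 1 to 2 pathway genes higher. The median leading share was 57.5% in stch4-1 and 55.8% in WT, 56.2% in WT under quantile normalization, and 56.4% in stch4-1 and 54.2% in WT with all paralogues counted. AT3G57490 ranged from -0.12 to 0.02 with 1 library left out, positive without WT c, and AT2G32060 turned to -0.03 under quantile normalization. The causes were not tested. For 16 named genes, 168 of 191 alternative values kept direction and side of the threshold, 15 lost the call, 6 gained it and 2 reversed. With only the 45 genes that share under 5% of their 50-base words, a choice made after seeing the data, 22 were called higher. No paired analysis was possible because the columns do not carry the replicate numbers of the titles. Depth is unknown from FPKM, which limits what can be said of genes under about 5 FPKM.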
